A study of Mus musculus with 46 samples.

Results

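The proteasome genes were taken as every listed gene whose symbol is Psm followed by a letter from a to g and a number, with Psmb8 and Psmb9 left out. The rule found 46 genes among the 21231 genes listed in any of the 3 expression tables, and it used no measured value. Of these, 44 were among the 15695 genes listed for the SVZ tissue, 46 among the 15285 listed for the LPS experiment and 46 among the 19930 listed for the GLOBAL repopulation experiment. Psma8 and Psmb11 were not in the SVZ table. By class, 8 genes encode alpha ring subunits of the 20S core (Psma8 being a testis form), 7 encode the constitutive beta ring subunits, and 2 encode beta subunits of particular cells, the inducible Psmb10 and the thymic Psmb11. A further 6 encode the ATPases and 11 the non-ATPase subunits of the 19S regulatory particle, 4 encode activators, 1 encodes the inhibitor Psmf1, 4 encode chaperones of 20S assembly and 3 encode chaperones of 19S assembly.

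The proteasome is the protease that degrades ubiquitin-tagged proteins in the cytosol and nucleus. Its 20S core is a barrel of alpha rings that gate the entrance and beta rings that carry the cutting sites. The 19S particle recognises, deubiquitinates and unfolds the substrate, while the PSME activators open the core without ATP. In immune cells, inflammatory signals, interferon among them, are known to exchange constitutive catalytic beta subunits for inducible ones and to raise Psme1 and Psme2, which changes the peptides available for antigen presentation.

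RNA was sequenced in 46 libraries from male wild-type C57BL/6 mice, and the microglia of the treated mice had been removed with PLX3397, a CSF1R inhibitor given at 600 ppm in chow. The SVZ (subventricular zone) tissue groups were SVZ control on control chow, SVZ 14 day PLX3397, and SVZ 5 day recovery, in which 14 days of PLX3397 were followed by 5 days without it (n = 5 each). The second experiment used CD11b+CD45int myeloid cells sorted from whole hemispheres of mice kept on control chow (control) or given PLX3397 for 14 days and then 28 days of recovery (WM), without LPS (0 hr) or 6 hr or 24 hr after 0.33 mg/kg of LPS, a bacterial endotoxin, given intraperitoneally. Mice of the sorted-cell experiments were 2 months old at treatment, and the SVZ groups, for which no other age is given, fall under the general age of 1.5 months. The study names a PBS injection but also defines 0 hr only as mice without LPS, so whether 0 hr mice were injected is unclear, and an effect of injection and one of LPS cannot be told apart in the comparisons with 0 hr. The libraries numbered 3, 5 and 4 for control at 0 hr, 6 hr and 24 hr, and 4 for WM at each time. The third compared sorted cells of GLOBAL control mice (n = 4) with those of GLOBAL repopulation mice (n = 3), which had PLX3397 for 7 days and then 28 days of recovery.

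Values are FPKM, fragments per kilobase of gene, scaled to the mapped fragments of the library, so levels of different genes are per length. Read depth, recovered from the steps between low values, was 4570000 to 10610000 reads per library for SVZ, 5240000 to 10380000 for the LPS experiment and 2210000 to 5370000 for GLOBAL. The 7 microglia markers summed to between 17260 and 20540 FPKM in the 0 hr libraries of the LPS experiment and to between 5737 and 7907 FPKM in the 6 hr libraries, while in SVZ tissue they went from between 166 and 225 FPKM in control to between 13.2 and 16.9 FPKM under PLX3397. Markers of other blood cells were present in the sorted cells of the LPS experiment. The 6 neutrophil markers summed to between 417 and 15120 FPKM there. The 5 monocyte markers summed to between 84.7 and 237 FPKM at 0 hr and between 905 and 2780 FPKM at 6 hr. None of these genes was at 0 in every library of a group. In RefSeq, 5 members (Psma5, Psmb5, Psmb6, Psmb7 and Psme2) have copies named after them, and reads could have been split between gene and copy, so their levels are less certain. Exons of 11 members overlap those of another GENCODE M21 gene, Psmb7, Psmc3, Psmd1 and Psme1 among them, and whether counting used strand is not given in the sources used here.

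Sequences upstream of Psma6, Psmd14, Psme1 and Psme2 are shown because these genes were among the 13 members called higher in every LPS response described below, and they were picked from those after their values were seen. They are the RefSeq promoter windows of the GRCm38.p6 build, limited to the longest stretch within the 250 bases before the start that no GENCODE exon covers, read 5′ to 3′ along the gene. Capitals mark the letters CCAAT, or their reverse complement, the CCAAT box. Psma6 has a window for each of its annotated starts.
Psma6 upstream start, chr12:55383972-55384221, plus strand: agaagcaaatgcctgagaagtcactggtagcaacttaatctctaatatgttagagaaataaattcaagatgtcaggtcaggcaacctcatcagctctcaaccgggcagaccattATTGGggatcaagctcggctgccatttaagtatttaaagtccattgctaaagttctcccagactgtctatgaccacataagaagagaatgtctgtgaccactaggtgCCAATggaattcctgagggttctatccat
Psma6 downstream start, chr12:55398575-55398774, plus strand: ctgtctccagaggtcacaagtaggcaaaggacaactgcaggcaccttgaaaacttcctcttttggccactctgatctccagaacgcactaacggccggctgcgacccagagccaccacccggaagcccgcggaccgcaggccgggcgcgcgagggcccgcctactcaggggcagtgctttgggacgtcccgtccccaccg
Psmd14, chr2:61711444-61711693, plus strand: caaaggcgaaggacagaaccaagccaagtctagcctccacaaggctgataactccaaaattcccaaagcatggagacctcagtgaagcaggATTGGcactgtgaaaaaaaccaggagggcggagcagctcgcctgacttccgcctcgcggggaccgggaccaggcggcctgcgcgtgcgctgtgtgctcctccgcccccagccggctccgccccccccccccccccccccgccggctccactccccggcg
Psme1, chr14:55578249-55578359, plus strand: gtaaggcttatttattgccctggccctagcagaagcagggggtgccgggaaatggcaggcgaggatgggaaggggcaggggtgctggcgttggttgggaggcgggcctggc
Psme2, chr14:55591114-55591351, minus strand: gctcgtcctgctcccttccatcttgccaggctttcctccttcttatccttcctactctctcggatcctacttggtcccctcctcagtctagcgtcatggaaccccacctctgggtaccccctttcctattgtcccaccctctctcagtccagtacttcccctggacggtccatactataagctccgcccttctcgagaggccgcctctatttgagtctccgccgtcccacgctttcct

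Both Psma6, an alpha ring subunit, and Psmd14, the deubiquitinase of the 19S particle, had CCAAT letters in these windows, 136 and 29 bases before the upstream Psma6 start and 159 bases before the Psmd14 start. None of the searched letters was found in the whole 250 bases before the start, of which only a stretch is shown, of Psme1 (chr14:55578494-55581527) or Psme2 (chr14:55587440-55591101), neighbouring genes that encode the partners of 1 activator ring. Over the 250 bases before the start, 41 windows of 38 members were searched on both strands. CCAAT was in 13 of them (31.7%, against 33.9% of all 32851 windows), GAAANNGAA, the interferon response element letters, in 3 (7.32%, against 7.13%), and TGACNNNGC, the antioxidant element letters, in 5 (12.2%, against 10.2%). The GAAANNGAA windows belonged to Psmb3, Psmd4 and Psmd9, and the TGACNNNGC windows to Psmb5, Psmb6, Psmc6, Psmd9 and Psmd12, so the shares of the members were near those of all windows.

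In unstimulated sorted cells the subunits of 1 complex differed widely in level. Among the 31 subunits of the 20S core and 19S particle, without Psma8 and Psmb10, mean FPKM in control 0 hr cells ran from 16.8 for Psma3 and 17.8 for Psma5 to 244 for Psmb2 and 302.0 for Psma7, with a median of 74.6. The order of the subunits was nearly the same in WM 0 hr cells (Spearman's rho 0.99 across the 31 genes), in control 6 hr cells (0.95), and less so in SVZ control tissue (0.83) and GLOBAL control cells (0.78). These correlations are across genes, which are not independent replicates, and the SVZ and GLOBAL tables were normalised separately. Psma3 was the lowest of the 31 in SVZ control as well, at 19.1 FPKM, and in GLOBAL control the lowest was Psmd1 at 13.04 FPKM. The activator Psme4, which opens the core in nuclei, was low throughout, between 2.97 and 8.42 FPKM in the LPS experiment. Psma8 was at 0.871 to 8.41 FPKM there, and Psmb11 never passed 0.363 FPKM and was below the filter of 1 FPKM in 3 samples, so 45 of the 46 members were tested in that experiment.

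Most proteasome genes were higher 6 hr after LPS in both cell populations, and none was called lower. A gene was called where limma, fitted on log2(FPKM + 1) over all groups of a table, gave a Benjamini-Hochberg adjusted p under 0.05 over all genes tested, and fold changes below are on that scale with their SE. In control cells at 6 hr, 27 of the 45 members tested were higher and 0 lower, where 21.4% of the 12684 genes tested were higher and 21.1% lower. In WM cells at 6 hr, 34 of 45 were higher and 0 lower, beside 19.3% and 19.5% of all genes. At 24 hr, 23 of 45 were higher in control cells, beside 12.1% higher and 9.23% lower of all genes, and 16 of 45 in WM cells, beside 10.5% and 8.29%, with 0 lower in either. The median log2 fold change of the members was 0.44 and 0.54 at 6 hr and 0.37 and 0.28 at 24 hr in control and WM cells, against medians of 0.02 or less over all genes tested. At 24 hr in control cells the count was 9 without control 0 hr replicate 3 and 15 without control 24 hr replicate 1, and it was 13 after quantile normalization and 10 with only the groups compared in the fit. In WM cells at 24 hr it was 9 without WM 24 hr replicate 2 and 10 without WM 0 hr replicate 1. In WM cells at 6 hr, replicate 1 had a neutrophil marker sum of 10050 FPKM against 417 to 800.0 FPKM in the other 3 libraries, and without it 30 members were called. The values are of bulk RNA, in which fewer cells of a type and less RNA per cell cannot be told apart, and the part that the monocyte and neutrophil markers given above have in these responses was not tested.

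**Figure D1:**
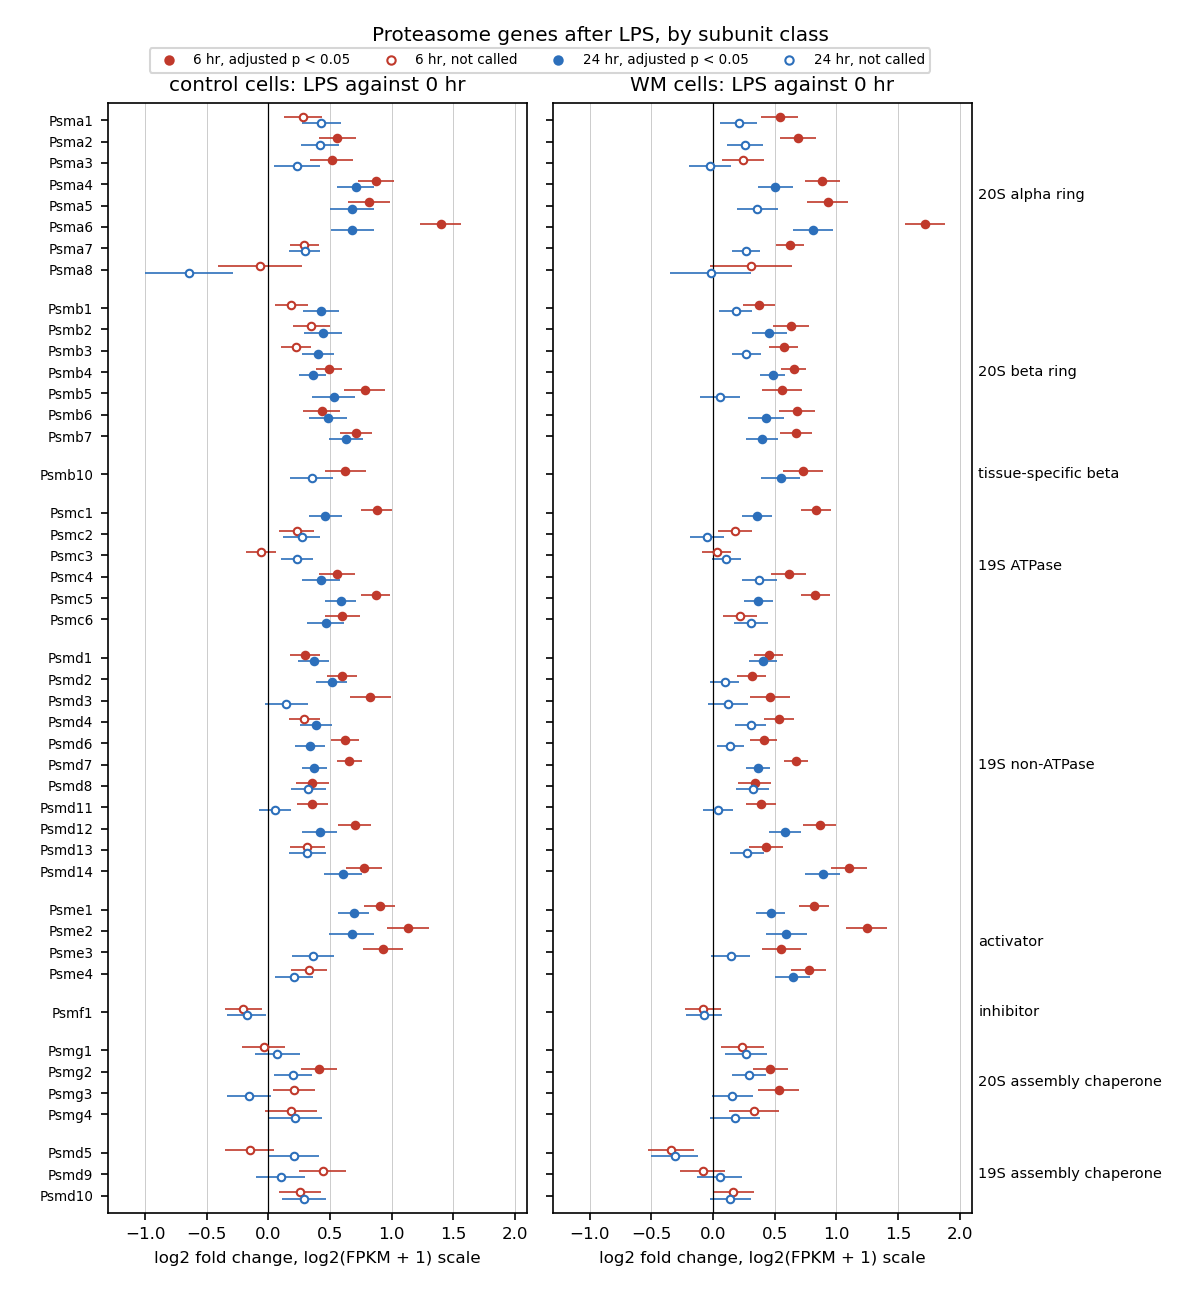
Log2 fold change (x axis, log2(FPKM + 1) scale, bars are SE) of each of the 45 tested members (y axis, grouped by class) at 6 hr (red) and 24 hr (blue) after LPS against 0 hr, in control cells (left) and WM cells (right). Filled points have an adjusted p under 0.05. Psma6 lies farthest to the right at 6 hr, at 1.40 and 1.72, and Psmf1 lies left of 0 in all 4 comparisons.

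The alpha ring, which forms the gate of the core, held the largest response. Psma6 was at 97.0, 90.5 and 89.1 FPKM in the 3 control 0 hr libraries and at 249.5, 253, 204, 271 and 249.1 FPKM in the 5 control 6 hr libraries. In WM cells it was at 58.2, 58.8, 78.9 and 82.8 FPKM at 0 hr and at 248.6, 249.1, 215 and 204 FPKM at 6 hr. The lowest 6 hr library was thus above 2 times the highest 0 hr library in both populations. Psma6 rose by a log2 fold change of 1.40 ± 0.17 in control cells (adjusted p = 4.3e-07, limma) and 1.72 ± 0.16 in WM cells (adjusted p = 1.6e-08). At 24 hr it stood at 141, 145, 127 and 186 FPKM in control cells and at 125, 155, 135 and 83.5 FPKM in WM cells, still higher than at 0 hr (0.68 ± 0.18 and 0.81 ± 0.16), although the lowest WM 24 hr library lay within 1 FPKM of the highest WM 0 hr library. Of the 8 alpha ring genes tested, 5 were higher at 6 hr in control cells and 6 in WM cells, and 3 and 2 at 24 hr. Psma4 rose by 0.88 ± 0.15 and 0.89 ± 0.14 at 6 hr and by 0.71 ± 0.15 and 0.50 ± 0.14 at 24 hr. Psma5 rose by 0.81 ± 0.17 and 0.93 ± 0.17 at 6 hr, and by 0.68 ± 0.18 at 24 hr in control cells. Psma3, the lowest of the ring apart from Psma8, rose in control cells (0.51 ± 0.18), where it went from between 15.8 and 18.1 FPKM to between 21.5 and 30.3 FPKM, and its value in WM cells was 0.24 ± 0.17 (adjusted p = 0.28). Psma7, the most abundant member in 0 hr cells, passed the test at 6 hr in WM cells (0.62 ± 0.12) with a value of 0.29 ± 0.12 in control cells (adjusted p = 0.054). The testis form Psma8 was called in none of the 4 responses.

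**Figure D2:**
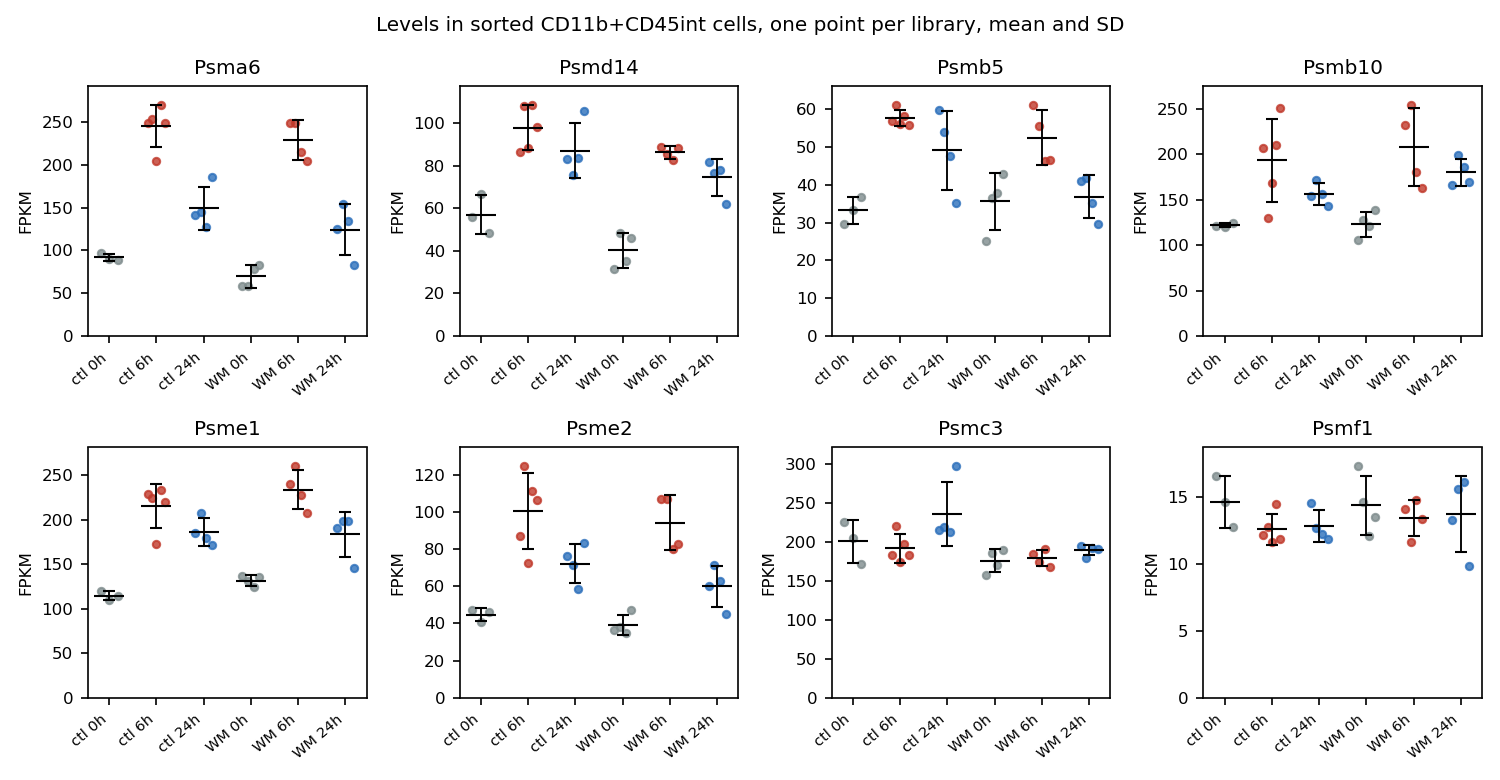
FPKM (y axis, from 0) of 8 members in each library of the LPS experiment (points), with the mean and SD (bars), for control (ctl) and WM cells at 0 hr, 6 hr and 24 hr. The 6 hr libraries of Psma6 and Psme2 lie above all 0 hr libraries in both populations, whereas Psmc3 and Psmf1 overlap between 0 hr and 6 hr.

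Each of the 7 constitutive beta ring genes was called higher in at least 2 of the 4 responses. In control cells 4 of 7 were called higher at 6 hr and 7 of 7 at 24 hr, and in WM cells 7 of 7 at 6 hr and 4 of 7 at 24 hr. No test compared 6 hr with 24 hr. The catalytic subunits are Psmb5, with chymotrypsin-like activity, Psmb6, with caspase-like activity, and Psmb7, with trypsin-like activity. Psmb5 was at 29.6, 33.3 and 36.8 FPKM in control 0 hr libraries and at 56.9, 61.1, 56.1, 58.1 and 55.9 FPKM at 6 hr, and rose by 0.78 ± 0.17 (adjusted p = 0.00058, limma). At 24 hr its control libraries spread from 35.2 to 59.7 FPKM and overlapped those at 0 hr. In WM cells Psmb5 rose by 0.56 ± 0.16 at 6 hr and its value at 24 hr was 0.06 ± 0.16. Psmb6, the most abundant of the catalytic genes, was at 179 to 215 FPKM in control cells at 0 hr, 225 to 307 at 6 hr and 243 to 381 at 24 hr, with log2 fold changes of 0.43 ± 0.15 and 0.48 ± 0.16. In WM cells it rose by 0.68 ± 0.14 and 0.43 ± 0.14. Psmb7 rose in all 4 responses, by 0.71 ± 0.13 and 0.63 ± 0.14 in control cells and by 0.67 ± 0.13 and 0.40 ± 0.13 in WM cells. The non-catalytic Psmb4 also rose in all 4, by between 0.36 and 0.66.

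Psmb10, the inducible subunit that takes the place of Psmb7, rose with it. Psmb10 was at 121, 120 and 125 FPKM in control 0 hr libraries and at 207, 130, 169, 210 and 251 FPKM at 6 hr, a log2 fold change of 0.62 ± 0.17 (adjusted p = 0.0040, limma). In WM cells it was at 106, 127, 121 and 139 FPKM at 0 hr and at 233, 255, 181 and 163 FPKM at 6 hr (0.73 ± 0.16). At 24 hr Psmb10 was called in WM cells (0.55 ± 0.16), where its libraries lay between 167 and 199 FPKM, and had a value of 0.35 ± 0.17 in control cells (adjusted p = 0.16). The share of Psmb10 in the sum of Psmb7 and Psmb10 compares the pair within each library. It was 64.8% ± 1.56 (SD, n = 3) in control cells at 0 hr, 63.2% ± 6.34 (n = 5) at 6 hr and 60.1% ± 2.87 (n = 4) at 24 hr, and 66.5% ± 3.26, 67.3% ± 3.52 and 68.7% ± 2.85 in WM cells (n = 4 each). In the 2-sided exact permutation tests of the difference of means, adjusted over 11 comparisons, no comparison passed. At these group sizes none could have passed the adjustment on its own, so the tests cannot decide whether the share changed. The smallest p that 4 against 4 libraries allow in this test is 0.029. That smallest value was reached at 24 hr, where the share was 8.58 percentage points higher in WM than in control cells and every WM library lay above every control library (exact permutation p = 0.029, adjusted p = 0.31). For control 24 hr against 0 hr the difference was -4.64 percentage points, at the smallest p that 4 against 3 libraries allow (exact permutation p = 0.057). The share was 55.7% ± 3.65 (n = 4) in GLOBAL control and 59.4% ± 3.09 (n = 3) in GLOBAL repopulation cells, and in SVZ tissue it was 19.5% ± 4.02, 20.2% ± 1.12 and 21.1% ± 1.95 (n = 5 each). The neighbouring inducible subunit genes, left out of the count above, were at 203 to 252 FPKM (Psmb8) and 129 to 138 FPKM (Psmb9) in control 0 hr cells, and of their 4 LPS responses each, 1 was called, Psmb8 in WM cells at 6 hr (0.48 ± 0.15). In SVZ tissue Psmb8 was called lower after 14 days of PLX3397 than in control (-0.81 ± 0.13, adjusted p = 0.0013, limma), at 2.22 to 4.30 FPKM against 5.36 to 7.65 FPKM.

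**Figure D3:**
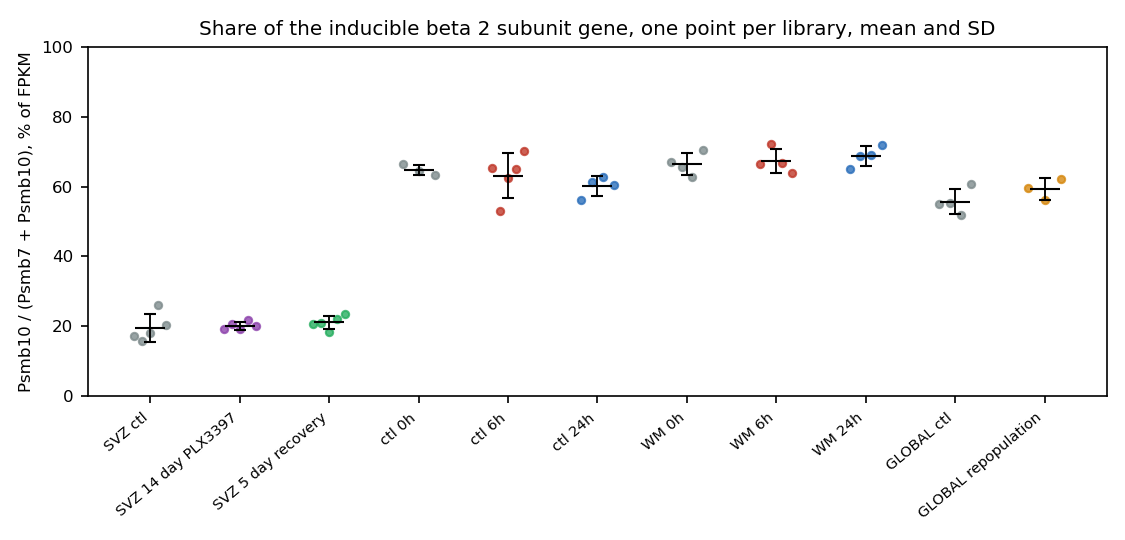
Psmb10 as a percentage of the summed FPKM of Psmb7 and Psmb10 (y axis, 0 to 100%) in each library (points), with the mean and SD, for the 11 groups. SVZ tissue lies near 20%, and all sorted-cell libraries lie between 51.9% and 72.2%.

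Of the 6 ATPases, the ring that unfolds substrates, 4 were higher at 6 hr in control cells and 3 in WM cells, and 4 and 2 at 24 hr. Psmc1 and Psmc5 changed most at 6 hr, with 0.88 ± 0.13 and 0.87 ± 0.12 in control cells and 0.84 ± 0.12 and 0.83 ± 0.12 in WM cells. Both were called at 24 hr too. Psmc6 was called in control cells at 6 hr and 24 hr but in WM cells at neither. In control cells Psmc6 went from between 26.8 and 35.8 FPKM at 0 hr to between 41.4 and 60.2 FPKM at 6 hr. Psmc4 rose from between 97.1 and 128 FPKM to between 135 and 199 FPKM in control cells (0.56 ± 0.15) and from between 83.8 and 110 FPKM to between 138 and 166 FPKM in WM cells (0.61 ± 0.14). Another ATPase, Psmc3, was at 226, 204 and 171 FPKM in control 0 hr libraries and at 183, 221, 174, 197 and 183 FPKM at 6 hr. Its libraries overlapped, and its log2 fold change was -0.06, with a 95% interval from -0.31 to 0.19, and in WM cells 0.03, from -0.22 to 0.28. Both intervals lie below the estimates for Psmc1 and Psmc5, though the difference between the genes was not tested. Psmc2 was called in none of the 4 responses either, with values between -0.05 and 0.27.

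Nearly all of the 11 non-ATPase subunits responded at 6 hr. Of these, 9 were higher at 6 hr in control cells and all 11 in WM cells, and 7 and 4 at 24 hr. Psmd14, which removes ubiquitin from the substrate, was at 56.0, 66.6 and 48.2 FPKM in control 0 hr libraries and at 86.3, 108, 88.3, 109 and 98.1 FPKM at 6 hr. In WM cells it was at 31.4, 48.2, 35.2 and 46.1 FPKM at 0 hr and at 88.8, 85.3, 82.4 and 88.2 FPKM at 6 hr, so the groups did not overlap in either population. It rose by 0.78 ± 0.15 in control and 1.10 ± 0.14 in WM cells (adjusted p = 0.00017 and 1.6e-06, limma), and at 24 hr by 0.60 ± 0.15 and 0.89 ± 0.14. Psmd12, a scaffold of the lid, rose in all 4 responses as well, by 0.70 ± 0.13 and 0.86 ± 0.13 at 6 hr and 0.42 ± 0.14 and 0.59 ± 0.13 at 24 hr. Psmd11, another lid subunit, rose at 6 hr by 0.35 ± 0.13 and 0.39 ± 0.12, from between 49.3 and 63.3 FPKM to between 69.0 and 84.7 FPKM in control cells, with values of 0.05 ± 0.13 and 0.04 ± 0.12 at 24 hr. The control 6 hr call of Psmd11 was lost after quantile normalization (adjusted p = 0.065, limma), with only the groups compared in the fit (0.064), and without control 0 hr replicate 3 (0.18) or control 6 hr replicate 2 (0.057).

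The activators as a class had the highest median at 6 hr, 0.92 in control and 0.80 in WM cells, with 3 and 4 of 4 genes called. Psme2 was at 47.1, 40.6 and 46.4 FPKM in control 0 hr libraries and at 87.4, 125, 72.9, 111 and 107 FPKM at 6 hr, and in WM cells at 36.4, 37.9, 35.0 and 47.0 FPKM and then 107, 107, 79.9 and 83.1 FPKM. No 6 hr library was as low as any 0 hr library, and the log2 fold change was 1.13 ± 0.17 and 1.25 ± 0.17 (adjusted p = 1.1e-05 and 2.4e-06, limma). Its partner Psme1 started higher, at 120, 110 and 114 FPKM in control cells, and was at 229, 224, 173, 233 and 220 FPKM at 6 hr, a rise of 0.90 ± 0.12, with 0.82 ± 0.12 in WM cells. Both stayed called at 24 hr, Psme1 by 0.69 ± 0.13 and 0.47 ± 0.12, and Psme2 by 0.67 ± 0.18 and 0.60 ± 0.17. Psme3, which forms a nuclear ring of a single subunit, rose at 6 hr in both populations (0.93 ± 0.16 and 0.55 ± 0.16) and was called in neither at 24 hr. Psme4 was called in WM cells, from between 2.97 and 3.99 FPKM at 0 hr to between 6.05 and 8.002 FPKM at 6 hr and between 5.71 and 6.56 FPKM at 24 hr (0.77 ± 0.14 and 0.65 ± 0.14). In control cells, where Psme4 began at between 4.45 and 6.12 FPKM, the values were 0.33 ± 0.15 and 0.21 ± 0.15.

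The inhibitor and 5 of the 7 assembly chaperones were called in none of the 4 responses. Psmf1, which binds the core and blocks it in vitro, was at 16.6, 14.6 and 12.7 FPKM in control 0 hr libraries and at 12.2, 12.8, 11.6, 14.4 and 11.9 FPKM at 6 hr, with overlapping groups. Its log2 fold change was -0.20 in control cells (95% interval -0.52 to 0.11) and -0.08 in WM cells (-0.39 to 0.22). Among the 4 chaperones of 20S assembly, Psmg2 rose at 6 hr in both populations (0.41 ± 0.15 and 0.47 ± 0.14) and Psmg3 in WM cells (0.53 ± 0.16). Psmg1, which with Psmg2 helps to build the alpha ring, had values of -0.04 ± 0.18 and 0.24 ± 0.17 at 6 hr. None of the 3 chaperones of 19S assembly, Psmd5, Psmd9 and Psmd10, was called in any of the 4 responses, with values between -0.34 and 0.44. In all, 13 members were called higher in every response (Psma4, Psma6, Psmb4, Psmb6, Psmb7, Psmc1, Psmc5, Psmd1, Psmd7, Psmd12, Psmd14, Psme1 and Psme2) and 9 in none (Psma8, Psmc2, Psmc3, Psmd5, Psmd9, Psmd10, Psmf1, Psmg1 and Psmg4). Over all 12684 genes tested, 597 (4.71%) were called higher in every response and 5341 (42.1%) were called in none. Since the 6 hr and 24 hr responses of a population share their 0 hr libraries, these counts are not independent of each other.

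**Figure D4:**
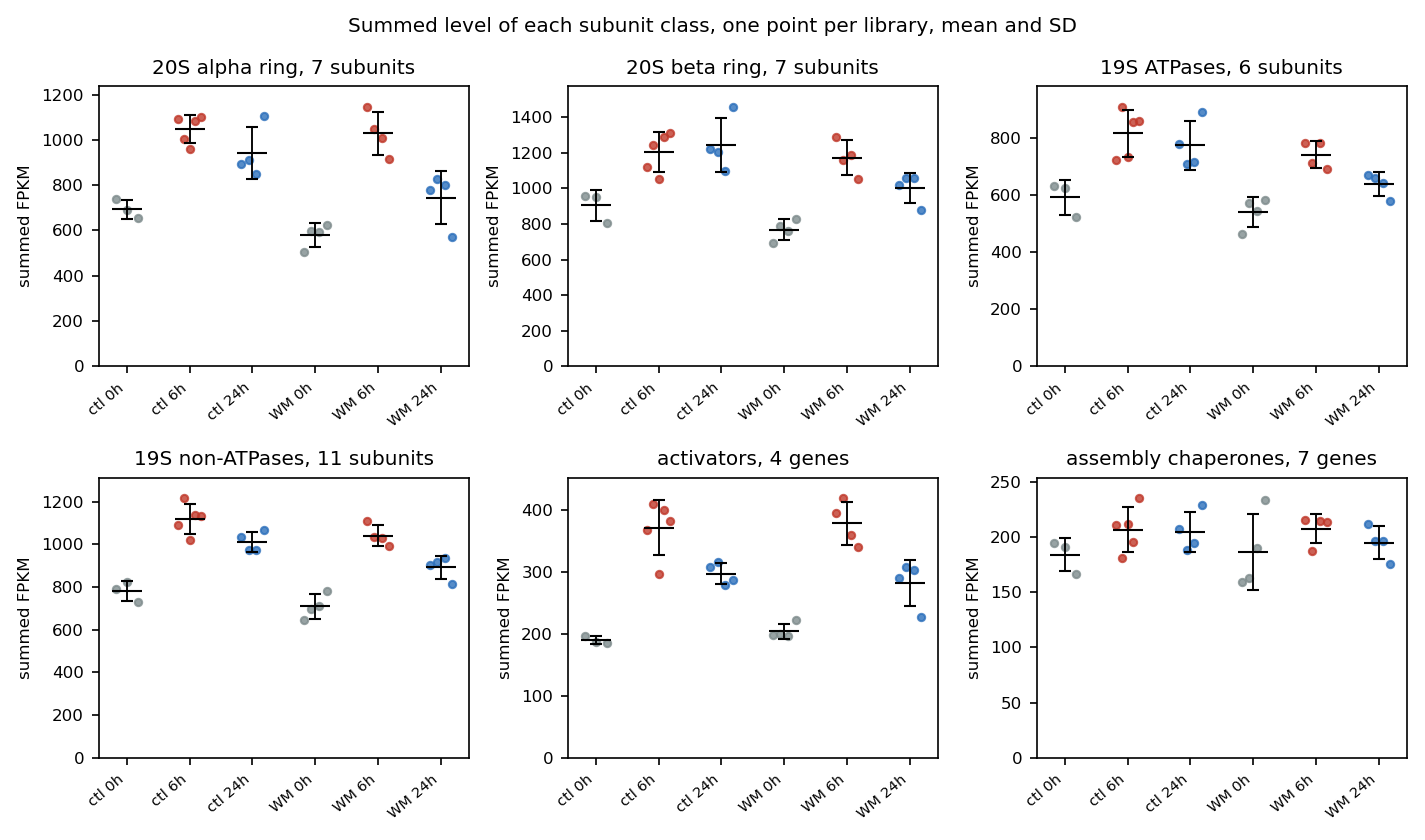
Summed FPKM (y axis, from 0) of the genes of each class in each library of the LPS experiment (points), with the mean and SD. Psma8 is left out of the alpha ring and Psmb10 out of the beta ring. The summed activators went from 185 to 196 FPKM in control 0 hr libraries to 296 to 409 FPKM at 6 hr, while the 7 assembly chaperones overlap between all groups.

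Summed levels of the alpha ring, the beta ring, the ATPases, the non-ATPase subunits and the activators lay apart between 0 hr and 6 hr. The 7 constitutive alpha ring genes summed to 694 ± 42.3 FPKM (SD, n = 3) in control cells at 0 hr, 1049 ± 62.6 (n = 5) at 6 hr and 941 ± 114 (n = 4) at 24 hr, and to 579 ± 51.3, 1029 ± 96.3 and 744 ± 117 FPKM in WM cells (n = 4 each). The 11 non-ATPase genes went from 782 ± 48.2 FPKM to 1120 ± 72.6 and 1011 ± 46.5 FPKM in control cells, and from 709 ± 57.1 FPKM to 1042 ± 49.8 and 893 ± 52.8 FPKM in WM cells. In these sums, and in those of the beta ring, the ATPases and the activators, no 6 hr library was as low as any 0 hr library of its population. By mean FPKM, 39 of the 45 tested members stood higher at 6 hr than at 24 hr in WM cells and 30 of 45 in control cells. The libraries of WM 24 hr replicate 4, at 571 FPKM, and control 24 hr replicate 4, at 1107 FPKM, set the ends of the alpha ring range at 24 hr.

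The responses of the 2 populations were compared directly. They share no library, and across the 45 members the log2 fold changes at 6 hr correlated with r = 0.785 (rho = 0.701), against r = 0.897 across all 12684 genes, and at 24 hr with r = 0.575 (rho = 0.616), against 0.746. These are descriptions across genes. At 6 hr, 25 members were called in both, which is 92.6% of the 27 in control cells and 73.5% of the 34 in WM cells. At 24 hr 14 were called in both, 60.9% of the 23 and 87.5% of the 16. Over all genes called higher, the shared genes were 70.0% of those in control and 77.7% of those in WM cells at 6 hr, and 49.1% and 56.4% at 24 hr. A gene called in 1 population and not in the other is not thereby different. In the limma test of the difference of the responses, WM minus control, 0 of 45 members passed at 6 hr (3 of all genes were higher, 0.0237%, and 0% lower) and 0 at 24 hr (0.0158% higher and 0.071% lower), and at an unadjusted p under 0.05 there were 1 and 2 members, beside 913 and 1105 of all genes. Psme4 had the smallest p at 6 hr, with a difference of 0.45 ± 0.20 (adjusted p = 0.68), followed by Psmb3 (0.35 ± 0.17) and Psmd9 (-0.52 ± 0.26). At 24 hr the smallest belonged to Psmd2 (-0.42 ± 0.17, adjusted p = 0.48), Psme4 (0.44 ± 0.21) and Psmb5 (-0.47 ± 0.24). 

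Compared at the same time after LPS, WM cells had lower values than control cells for most members, of which 1 was called. At 0 hr no member was called (0.717% of all genes were higher in WM and 0.497% lower), with 8 members and 1514 of all 12684 genes at an unadjusted p under 0.05 in limma, and 11 of 45 log2 differences were above 0, with a median of -0.14. Psme4 (-0.51 ± 0.15, adjusted p = 0.12), Psmd14 (-0.50 ± 0.15, adjusted p = 0.13) and Psmd1 (-0.35 ± 0.12, adjusted p = 0.20) had the smallest p. At 6 hr again none was called (0.213% of all genes higher, 0.11% lower), with 2 members and 1164 genes at an unadjusted p under 0.05, and the median was -0.09. The smallest p there belonged to Psmc6 (-0.34 ± 0.13, adjusted p = 0.39), Psmd7 (-0.19 ± 0.09) and Psmd1 (-0.20 ± 0.11). At 24 hr 1 of 45 was lower and 0 higher, where 2.29% of all genes were lower and 1.68% higher, with 8 of 45 values above 0 and a median of -0.22. At an unadjusted p under 0.05 there were 17 members, beside 2238 genes. The 1 called was Psmb3, a non-catalytic beta ring subunit, at 88.4, 93.9, 89.0 and 101 FPKM in control and 65.4, 77.9, 70.1 and 59.1 FPKM in WM cells. The groups did not overlap, and the difference was -0.45 ± 0.12 (adjusted p = 0.032, limma). The call was lost with only the groups compared in the fit (adjusted p = 0.11, limma) and without control 24 hr replicate 1, 2 or 4 or WM 24 hr replicate 1, 3 or 4, with adjusted p between 0.051 and 0.0997.

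In SVZ tissue after 14 days of PLX3397, 0 of the 44 members were called by limma (0.0565% of 14151 genes tested were higher and 1.21% lower), with 1 member and 866 of all genes at an unadjusted p under 0.05, the member being Psmd1 (0.23 ± 0.07, adjusted p = 0.19). Next came Psma4 (-0.14 ± 0.07) and Psmd11 (0.13 ± 0.09). The median was 0.02, and 25 of 44 were above 0. Psmb6 was at 252.3 to 264.6 FPKM in control and 265.2 to 275 FPKM under PLX3397, ranges that did not overlap, with a log2 fold change of 0.05 ± 0.12. Psmb5 was at 101 to 121 and 103 to 121 FPKM, with overlap. Psme1 was at 34.0 to 59.9 FPKM in control and 45.5 to 53.7 FPKM under PLX3397, and Psme2 at 8.02 to 11.7 and 9.75 to 11.2 FPKM. Psma6, at 119 to 140 FPKM in control and 119 to 138 FPKM under PLX3397, and Psmf1, at 10.4 to 14.03 and 12.95 to 15.3 FPKM, overlapped likewise. Psme3 was at 47.2 to 59.2 and 54.6 to 61.4 FPKM, and Psmg1 at 25.7 to 31.7 and 24.1 to 33.6 FPKM.

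After 5 days of recovery 1 member was called higher against SVZ control and 0 lower (0.184% and 1.09% of all genes), and 0 were called against SVZ 14 day PLX3397 (0.29% higher and 0.0353% lower), with 18 and 15 of 44 members at an unadjusted p under 0.05 in limma, beside 2346 and 2338 of all 14151 genes. The 1 called was Psmd11, at 43.8, 49.0, 44.4, 54.0 and 56.2 FPKM in control, 52.6, 53.9, 57.5, 53.7 and 52.7 FPKM under PLX3397 and 60.2, 57.7, 60.9, 70.6 and 72.4 FPKM in recovery. All recovery libraries lay above all others. The log2 fold change against control was 0.37 ± 0.09 (adjusted p = 0.039), and without any 1 of 6 libraries (SVZ control replicates 1, 2 and 3, SVZ 5 day recovery replicates 1, 4 and 5) or with only the groups compared in the fit it was not called (adjusted p between 0.052 and 0.19, limma). Without SVZ 5 day recovery replicate 3 the count of members called was 4. Against PLX3397 Psmd11 was not called (0.24 ± 0.09, adjusted p = 0.22, limma). The study named Psmd11 among several upregulated genes in its comparison of PLX3397 with recovery, made on these same libraries. The call of Psmd11 against control here is thus no independent evidence. Against PLX3397 the smallest p belonged to Psmd7 (0.24 ± 0.06), Psmd10 (0.36 ± 0.10) and Psmc5 (0.27 ± 0.09), with adjusted p of 0.12, 0.14 and 0.21.

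Most members had values above 0 in recovery without passing the test. Against control, 36 of 44 log2 fold changes were above 0, with a median of 0.16 (all genes -0.01), and against PLX3397 41 of 44, with a median of 0.13. The 2 comparisons share the recovery libraries. Recovery libraries 4 and 5 were the highest for several members. Psmb6 was at 299, 275, 260, 391 and 464 FPKM in recovery, Psmc4 at 144, 140, 134, 172 and 195 FPKM, and Psmc3 at 179, 168, 169, 215 and 246 FPKM. The 6 ATPases summed to 926, 886, 819, 1077 and 1155 FPKM there, against 774 to 859 FPKM in control. The SD of that sum was 139 FPKM in recovery and 35.4 FPKM in control. The activators summed to 113 to 128 FPKM in recovery and 98.0 to 127 FPKM in control. The 4 listed erythrocyte markers summed to between 91.3 and 336 FPKM in recovery against 32.4 to 79.3 FPKM in control. In the order of the recovery libraries these sums were 144, 91.3, 233, 103 and 336 FPKM, and the part of blood cells in these values was not tested.

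**Figure D5:**
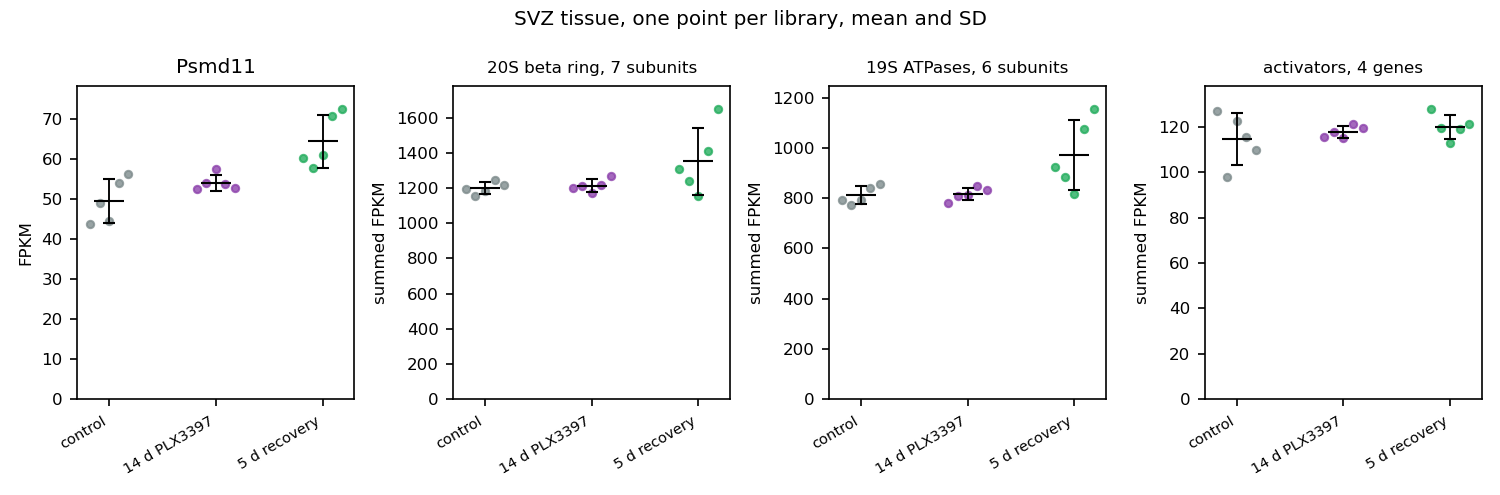
FPKM of Psmd11 and summed FPKM of the beta ring, the ATPases and the activators (y axes, from 0) in each SVZ library (points), with the mean and SD, for the control, PLX3397 and recovery groups. All 5 recovery libraries of Psmd11 lie above the others, and the recovery group spreads widest in the beta ring and ATPase sums.

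In GLOBAL repopulation, in which the cells had recovered for 28 days from a shorter treatment, 0 of 45 tested members were called by limma (0% of 16651 genes were called higher and 0% lower), with 1 member and 1504 genes at an unadjusted p under 0.05. Psmd1, a scaffold of the 19S particle, had the smallest p, 0.51 ± 0.15 (adjusted p = 0.36), followed by Psma8 (0.40 ± 0.24) and Psme1 (0.27 ± 0.16). Psme1 was at 100, 78.4, 75.8 and 107 FPKM in control and 99.4, 102 and 123 FPKM in repopulation cells, which overlap. Psma6 was at 50.7 to 59.1 FPKM in control and 51.8 to 59.7 FPKM in repopulation cells (0.02 ± 0.12), and Psmd14 at 16.02 to 26.8 and 22.6 to 28.9 FPKM (0.22 ± 0.18). Of the 45 members 32 were above 0, with a median of 0.07. The neutrophil markers summed to 2098 to 22590 FPKM in control and 1265 to 4565 FPKM in repopulation libraries, and their part was not tested.

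Of 30 further genes around the proteasome, 29 were tested in the LPS experiment. In control cells at 6 hr 10 were higher and 2 lower, beside 21.4% and 21.1% of all genes, and in WM cells 11 were higher and 3 lower, beside 19.3% and 19.5%. At 24 hr the counts were 4 and 0 in control cells, beside 12.1% and 9.23%, and 2 and 3 in WM cells, beside 10.5% and 8.29%. Rps27a, which encodes ubiquitin fused to a ribosomal protein, led with 1.60 ± 0.17 and 1.48 ± 0.17 at 6 hr and 1.56 ± 0.18 and 1.09 ± 0.17 at 24 hr. Zfand5, an activator of the 26S particle, rose by 0.87 ± 0.22 and 1.02 ± 0.22 at 6 hr, and Usp14, a deubiquitinase bound to the 19S particle, by 0.68 ± 0.15 and 0.90 ± 0.14. Sem1, listed as Shfm1, the smallest 19S subunit, rose by 0.77 ± 0.12 and 0.80 ± 0.12. Nfe2l1, a transcription factor that drives proteasome genes when proteasome activity is low, rose by 0.75 ± 0.17 and 0.69 ± 0.17. Akirin2, which guides proteasomes into the nucleus, went the other way, falling by 1.29 and 1.42 on the log2 scale (SE 0.20 in both) at 6 hr. In the comparisons of SVZ and GLOBAL groups none of the 28 or 29 genes tested was called by limma, with 0, 8, 4 and 3 at an unadjusted p under 0.05 for PLX3397, recovery against control, recovery against PLX3397 and GLOBAL repopulation, beside 866, 2346 and 2338 of 14151 genes and 1504 of 16651 genes. Between WM and control cells at 24 hr, 1 of the 29 genes was higher in WM cells and 1 lower. Of all genes, 1.68% were higher and 2.29% lower. The higher gene was Zfand2a (0.66 ± 0.18).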

How the data were processed

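RNA from SVZ tissue or sorted cells was sequenced in 46 libraries. Per the study's methods and the labels, the authors aligned reads to mm10 with STAR, counted them per gene with featureCounts (Rsubread) and deposited FPKM values, 1 table for each experiment, so that tests were made within a table. The methods give paired reads of 43 bp, while the label protocols describe another library service, and the FPKM formula's fragment total is not given in the sources used here. Counts were not used. No 2 libraries held identical values. Values stepping in whole reads (88.2 to 99.6% of the low genes tried within 0.02 of a whole read) gave the depth, 2210000 to 10610000 reads per library, which limits low genes most. The study's methods give n as mice in a group, while the labels name no mouse for a library.

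Genes with at least 1 FPKM in 3 libraries of a table were kept, log2(FPKM + 1) was fitted with limma 3.58.1 (R 4.3.3; empirical Bayes with a trend, all groups of a table in 1 fit), and p-values were adjusted by Benjamini and Hochberg over all genes tested, with an adjusted p under 0.05 as a call (2-sided). The fits were tested on simulated data. Exact permutation tests used scipy 1.17.1. Named were the up to 6 called members of largest change in each direction of a comparison, or the 3 with the smallest p where none was called, with 14 members set by name (Psma3, Psmb5, Psmb6, Psmb7, Psmb10, Psmc4, Psmd11, Psmd14, Psme1, Psme2, Psme3, Psme4, Psmf1, Psmg1) and up to 4 other pathway genes per direction, of which 1 is not reported here; further members were named by class after their values were seen. The members and lists were chosen with earlier results of these data known. Alternatives were another pseudocount, no filter, quantile normalization, a fit of only the groups compared, a replicate block and leaving out each library.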

Additional observations from a re-analysis of the deposited data

Results flagged for a closer look

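In 16 of 312 groups of 4 or 5 libraries tested (5.13%), 1 library lay far from the others, and chance alone gives about 1 in 20. In the LPS experiment these were Psme1 at 173 FPKM in control 6 hr and at 146 FPKM in WM 24 hr, Psmd7 at 152 FPKM in control 24 hr, Psmd11 at 45.3 FPKM in WM 24 hr, Psmd1 at 49.1 FPKM in WM 0 hr, the summed activators at 221 FPKM in WM 0 hr and the summed assembly chaperones at 188 FPKM in WM 6 hr. In SVZ tissue they were Psmb6 at 252 FPKM, Psmb7 at 115 FPKM and Psme2 at 8.02 FPKM in control, Psma4 at 43.9 FPKM, Psmd11 at 57.5 FPKM and Psme3 at 61.4 FPKM under PLX3397, and Psmb5 at 75.2 FPKM and Psme3 at 63.5 FPKM in recovery. In GLOBAL control it was Psmb3 at 69.5 FPKM.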

How the results depend on the processing

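The called values of the named members kept their direction under every alternative run. The count of members called at 24 hr in control cells (23) was 13 after quantile normalization, 15 with a replicate block, 10 with only the groups compared in the fit and 9 to 20 when 1 library was left out. In WM cells at 24 hr (16) it was 9 to 19 when 1 library was left out. The 1 member called in SVZ recovery against control became 0 with only the groups compared in the fit and 0 to 4 with 1 library left out, 4 without SVZ 5 day recovery replicate 3. The 1 member called at 24 hr between WM and control cells became 2 after quantile normalization, 0 with a replicate block, 0 with only the groups compared in the fit and 0 to 2 with 1 library left out. At 6 hr the counts stayed between 21 and 28 in control and between 28 and 34 in WM cells. For the share of Psmb10 only leaving out a library was tried, which changed the sign of the difference in 4 of 92 cases. The replicate numbers were not taken as pairs in the main fit. Same-numbered libraries of different groups correlated in their deviations by medians of 0.05 (SVZ), -0.001 (LPS experiment) and 0.10 (GLOBAL). For other pairs the medians were -0.007, -0.004 and -0.04. Above 0.1 were 5 of 15 same-numbered pairs in SVZ (highest 0.486), 7 of 55 in the LPS experiment and 2 of 3 in GLOBAL. The causes of these changes were not tested. Depth limits genes of a few FPKM, such as Psma8, Psmb11 and Psme4.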
